A study of Mus musculus with 43 samples.

Results

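Knockdown of Ddx18 in mouse embryonic stem cells (ESCs) was followed by RNA-seq in 2 libraries with knockdown and 2 control libraries, which are 4 of the 43 samples of the series. They were chosen by their labels. All 4 came from CJ9 mES cells of the strain labelled 129S1/SVImJ, grown in serum with LIF and carrying no labelled knockout, and the only labelled difference between the groups is the knockdown. How the knockdown was made, how long it lasted and what the controls received are not given in the sources used here, and CJ9 is a single line. Polyadenylated RNA was isolated from total RNA on oligo-dT beads. The deposited table gives 4769 genes, against 46853 or 46854 entries in the tables of the 3 comparisons used beside it. Those were the same knockdown in EZH2 KO mES cells and in p53 KO mES cells (2 knockdown and 2 control libraries each), and 1 µM CX-5461, which blocks transcription by RNA polymerase I, against 0 µM in CJ9 mES cells (3 libraries each). Regions of RNA bound by DDX18 came from ESCs with FLAG- and biotin-tagged DDX18, by CLIP-seq and by TAP-seq (2 libraries each). The series asks what DDX18 does in ESC identity and in the early embryo.

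DDX18 belongs to the DEAD-box family of RNA helicases and sits in the nucleolus. Its yeast counterpart, Has1, takes part in the assembly of both ribosomal subunits. Where ribosome assembly fails, free ribosomal proteins of the large subunit can bind MDM2, which then no longer marks p53 for degradation, and p53 turns on genes that arrest or kill the cell. ESCs in serum with LIF divide fast, spend little time in G1, rely strongly on glycolysis and hold a transcription factor network around Pou5f1 and Nanog that keeps lineage genes low.

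The libraries held 17106179 and 16254697 mapped reads with knockdown, against 14385912 and 22983179 in the controls. Knockdown replicate 2 was sequenced in 2 runs on lanes 2 and 3, and the other 3 libraries on lane 7. Values are FPKM, fragments per kilobase of transcript scaled to the mapped reads, as the authors deposited them. Whether they were scaled further between libraries is not stated, and comparisons between libraries carry that limit. Changes are log2 ratios of FPKM + 1, knockdown over control, which understate the change of genes with low values. The test was limma across the table with Benjamini-Hochberg adjustment at 0.05, after a filter of 1 FPKM in 2 libraries that 4695 of the 4769 genes passed. Its p-values rest on how far libraries of a group differ. The labels do not say whether those came from separate cultures, so that spread may be technical.

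The table is a selection, and this limits what its calls can show. In each of the 4769 genes both knockdown libraries lay on 1 side of both controls. Of the genes tested, 2593 were called higher (55.2%) and 2002 lower (42.6%), and 100 were not called. A gene of this table therefore almost always passes, and what follows describes direction, size and function among genes the authors had chosen on these same libraries. Counts of gene lists are to be read in that light. They give how many members are listed and on which side, and are not independent evidence of a direction. In the library pairs the median absolute log2 difference was 0.08 between the knockdown replicates and 0.07 between the controls, against a median absolute change of 0.58.

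The balance of higher and lower genes depended on scaling. The median change over the listed genes was 0.30. Rescaling divided every library by the median of its ratios to the geometric means of the genes in its own table. It moved the median change by 0.29, to 0.00, and left 1850 genes called higher and 2118 lower of 4655. The ESC factors thus rest on the selected genes alone, so a median near 0 follows from the method. Which scaling is right cannot be told here. Rescaled medians are therefore given beside those of gene lists. In the ESC table, list medians as deposited cover all listed members. The rescaled ones cover only members that pass the filter after rescaling, so the 2 can differ in members as well as in scale. Without knockdown replicate 2, which leaves lane 7 alone, 2218 were called higher and 1954 lower of 4374.

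The targeted transcript was low in both knockdown libraries. Ddx18 (ENSMUSG00000001674.11, chr1:121553835-121567989 on mm10) had 9.94 and 8.52 FPKM with knockdown, against 84.6 and 89.1 FPKM in controls. That is a 9.41-fold lower mean with knockdown, 9.23 ± 1.001 FPKM with knockdown and 86.9 ± 3.15 FPKM in controls (SD, n = 2 each), and a log2 change of -3.11 ± 0.078 (SE; limma adjusted p = 2.6e-06). The 2 groups stood far apart and the replicates of each close together.

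The cells kept the defining transcripts of ESCs. Pou5f1, which encodes OCT4, had 364 and 358 FPKM with knockdown, against 479.8 and 468 FPKM in controls. Nanog, a factor of the same network, had 86.4 and 84.6 FPKM with knockdown, against 152 and 149 FPKM in controls. Zfp42, a marker of naive ESCs, had 275 and 314 FPKM with knockdown, against 425 and 459 FPKM in controls. All 3 were lower with knockdown and remained above 84 FPKM. Sall4, another factor of the network, had 63.1 and 65.4 FPKM with knockdown, against 50.3 and 49.7 FPKM in controls, with a change of 0.35 as deposited and 0.044 after rescaling. Sox2 and Esrrb are not listed in the table. Of markers of other cells, 3 of 18 for fibroblasts, 4 of 20 for blood and endothelium and 4 of 22 for germ cells are listed. Thy1, a surface protein of fibroblasts and other cells, had 5.34 and 6.05 FPKM with knockdown, against 19.6 and 19.3 FPKM in controls. Acta2, an actin of smooth muscle, had 7.64 and 8.09 FPKM with knockdown, against 3.28 and 3.17 FPKM in controls. Laptm5, a lysosomal protein gene of blood cells, had 72.9 and 79.6 FPKM with knockdown, against 59.4 and 56.6 FPKM in controls. The other 8 stayed under 12 FPKM in every library. Summed over listed members, fibroblast markers had 14.6 and 16.1 FPKM with knockdown and 23.8 and 23.2 FPKM in controls, blood and endothelial markers 76.2 and 82.9 FPKM with knockdown and 61.8 and 58.6 FPKM in controls, and germ cell markers 22.8 and 26.2 FPKM with knockdown and 27.7 and 26.4 FPKM in controls. Of the 11, 6 were called higher, 4 lower and 1 not tested, and their part in the other results was not tested. In bulk RNA, fewer cells of a type and less RNA per cell cannot be told apart.

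Most changes were moderate and a small group was large. On mean FPKM, 1009 of the genes called higher differed at least 2-fold and 243 at least 4-fold. Of those called lower, 393 differed at least 2-fold and 82 at least 4-fold. Changes of under 1.5-fold made up 830 of the higher and 1021 of the lower genes.

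The 12 genes with the largest increases have varied roles. Cyr61 (chr3:145646976-145649981), a matricellular protein and a standard target of the co-activator YAP, had 114 and 107 FPKM with knockdown, against 8.94 and 9.22 FPKM in controls, a log2 change of 3.46 ± 0.059 (SE; limma adjusted p = 9.2e-07). Cpz, a carboxypeptidase that binds the extracellular matrix, had 23.6 and 21.3 FPKM with knockdown, against 1.61 and 1.13 FPKM in controls. Fosl1, a subunit of the transcription factor AP-1, had 21.3 and 15.9 FPKM with knockdown, against 1.72 and 2.03 FPKM in controls. In each of these the lowest knockdown library was several times the highest control. Fgfbp1, a carrier of FGF ligands, had 40.96 and 40.5 FPKM with knockdown, against 5.37 and 5.18 FPKM in controls. Plin2, the coat protein of lipid droplets, had 78.4 and 64.9 FPKM with knockdown, against 11.98 and 8.32 FPKM in controls. Irs2, an adaptor of the insulin receptor, had 27.3 and 26.2 FPKM with knockdown, against 2.98 and 3.67 FPKM in controls. The 2 libraries of each group lay far closer to each other than to the other group, with Plin2 the most spread. Krt18, a keratin of simple epithelia, had 64.5 and 51.6 FPKM with knockdown, against 8.62 and 8.75 FPKM in controls. Cryab, a small heat shock protein, had 33.9 and 26.7 FPKM with knockdown, against 4.41 and 4.03 FPKM in controls. Both had the higher value in knockdown replicate 1. Ddit3, which encodes the stress factor CHOP, had 40.9 and 50.4 FPKM with knockdown, against 7.24 and 5.82 FPKM in controls. Hyal1, a lysosomal hyaluronidase, had 25.2 and 23.1 FPKM with knockdown, against 3.03 and 3.07 FPKM in controls. The locus of Ddit3 overlaps Mars and that of Hyal1 overlaps Nat6, so reads could be shared, and the strand of counting is not stated. Shisa4 and Ms4a10 completed the 12 genes with the largest increase, with log2 changes of 2.66 and 2.62.

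**Figure D1:**
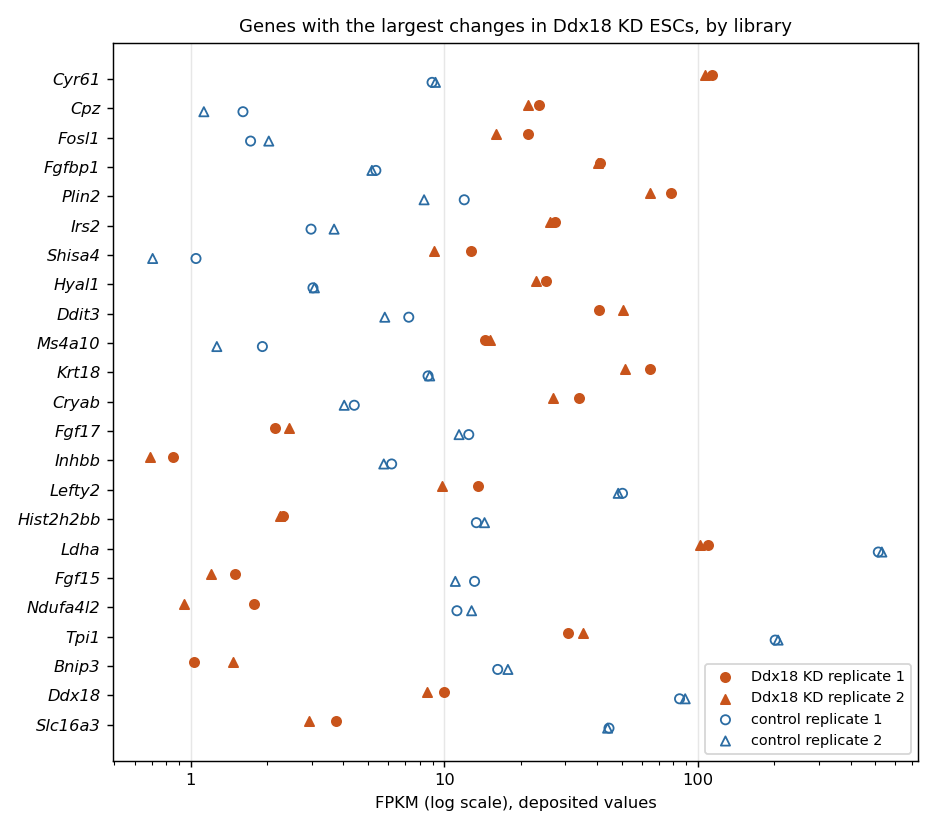
FPKM of the genes with the largest log2 changes in Ddx18 knockdown ESCs (rows, highest increase at the top; Snord15b is left out because it is listed at 0 with knockdown), on a log axis. Filled symbols are the 2 knockdown libraries and open symbols the 2 controls, and in each row the 2 groups stand apart, by more than 10-fold on the means in Cyr61, Cpz, Shisa4, Slc16a3 and Bnip3.

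Of the 12 genes with the largest decreases, 5 belong to glycolysis or are known to respond to hypoxia (Slc16a3, Bnip3, Tpi1, Ndufa4l2 and Ldha); the others are Ddx18, Snord15b, Fgf15, Hist2h2bb, Lefty2, Inhbb and Fgf17. Glycolysis turns glucose into pyruvate and lactate, and many of its genes are shared targets of the hypoxia-inducible factor HIF and of Myc. Slc16a3 (chr11:120948480-120960868), the transporter MCT4 that exports lactate, had 3.75 and 2.93 FPKM with knockdown, against 44.6 and 44.04 FPKM in controls, a log2 change of -3.39 ± 0.096 (SE; limma adjusted p = 2.8e-06). Tpi1, triosephosphate isomerase, had 30.7 and 35.2 FPKM with knockdown, against 202 and 207 FPKM in controls. Ldha, the lactate dehydrogenase subunit that makes lactate from pyruvate, had 109 and 102 FPKM with knockdown, against 515 and 531 FPKM in controls. The 2 groups stood far apart in all 3, with replicates close together; the locus of Tpi1 overlaps Spsb2.

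Of 27 glycolysis genes 20 are listed, 19 lower and 1 higher, with a median change of -0.89 (rescaled -1.19) against 0.30 over all listed genes. Their summed level was 3366 and 3230 FPKM with knockdown and 6435 and 6801 FPKM in the controls. Pkm, pyruvate kinase, carried much of that loss, with 753 and 696 FPKM with knockdown, against 1452 and 1574 FPKM in controls. The smallest decrease was that of Gapdh (866 and 809 FPKM with knockdown, 1039.7 and 1139 in controls; named for its use as a reference gene after its values were seen). The one higher member was Pfkfb2, which makes an activator of phosphofructokinase, with 5.29 and 6.92 FPKM with knockdown, against 2.35 and 2.28 FPKM in controls.

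Hypoxia-response genes outside glycolysis were split. Of 43 such genes 25 are listed, 18 lower and 7 higher, with a median of -0.69 (rescaled -0.95). Bnip3, a mitophagy receptor of the BCL2 family, had 1.03 and 1.47 FPKM with knockdown, against 16.2 and 17.8 FPKM in controls. Egln3, an oxygen-sensing hydroxylase induced by HIF, had 1.63 and 1.13 FPKM with knockdown, against 7.18 and 5.34 FPKM in controls. Both groups of these 2 genes were well apart. Ankrd37, another HIF target, had 2.32 and 2.29 FPKM with knockdown, against 8.74 and 9.11 FPKM in controls. Among the higher members were Bhlhe40, a transcriptional repressor (20.8 and 19.7 FPKM with knockdown, 8.52 and 6.25 in controls), and Ddit4, an inhibitor of mTORC1 (78.8 and 67.6 FPKM with knockdown, 32.5 and 33.6 in controls), each of which is also induced by other stresses. Ndufa4l2, a mitochondrial protein gene induced in hypoxia, had 1.78 and 0.940 FPKM with knockdown, against 11.2 and 12.8 FPKM in controls; it lies in the same locus as Shmt2.

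The promoters of these genes are shown because ACGTG is the core of the site that HIF binds. Each line gives the 200 bases before a RefSeq start on GRCm38.p6, read 5′ to 3′ on the gene's strand, at chr11:120948867-120949066 (+) for Slc16a3, chr7:46845604-46845803 (+) for Ldha, chr7:138909507-138909706 (-) for Bnip3 and chr6:124814159-124814358 (-) for Tpi1. Capitals mark ACGTG on either strand; where both strands match, the run reads CACGTG, which is also the E box that Myc and its partners bind.
Slc16a3: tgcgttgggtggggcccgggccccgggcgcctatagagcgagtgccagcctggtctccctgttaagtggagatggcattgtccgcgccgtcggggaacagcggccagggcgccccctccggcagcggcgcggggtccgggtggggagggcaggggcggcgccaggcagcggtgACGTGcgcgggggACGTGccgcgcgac
Ldha: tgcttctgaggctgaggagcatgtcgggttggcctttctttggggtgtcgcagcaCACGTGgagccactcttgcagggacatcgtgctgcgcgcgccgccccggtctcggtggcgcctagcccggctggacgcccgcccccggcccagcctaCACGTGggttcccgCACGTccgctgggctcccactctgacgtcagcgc
Bnip3: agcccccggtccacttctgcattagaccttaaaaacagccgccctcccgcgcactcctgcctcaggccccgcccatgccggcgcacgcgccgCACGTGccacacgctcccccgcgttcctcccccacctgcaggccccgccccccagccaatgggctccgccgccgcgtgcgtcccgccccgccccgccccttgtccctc
Tpi1: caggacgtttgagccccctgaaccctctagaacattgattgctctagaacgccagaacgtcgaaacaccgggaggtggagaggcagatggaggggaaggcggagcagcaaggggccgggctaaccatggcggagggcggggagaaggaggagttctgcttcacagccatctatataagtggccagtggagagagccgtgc

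Slc16a3 holds 2 marked runs, the nearest 14 bases from the start, Ldha holds 3, Bnip3 holds 1 and Tpi1 holds none in this window. Ldha has a second RefSeq start, whose window at chr7:46846882-46847081 (+) holds none. In windows of 250 bases before any RefSeq start of a gene, 10 of the 18 glycolysis genes called lower for which a window was read (55.6%) and 10 of 15 other hypoxia-response genes called lower (66.7%) hold ACGTG. Of 27025 genes with a window 18.5% do, and of listed genes with one, 25.9% of 1461 called lower and 25.4% of 1965 called higher do. Windows were found for 74.7% and 77.7% of those listed genes, below the 80% set here as the least for a share to be read, so these 2 shares are a rough background. No share was taken for members of the 2 lists that were not called lower. Whether ACGTG goes with the decrease therefore cannot be read from these shares. Whether these letters are used in ESCs was not tested.

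Targets of p53 stood on the other side. Of 24 genes of growth arrest and feedback 16 are listed, all 16 higher, with a median of 1.34 (rescaled 1.05). Plk2, a kinase, had 90.9 and 81.4 FPKM with knockdown, against 14.5 and 15.1 FPKM in controls. Btg2, an antiproliferative gene, had 60.4 and 64.7 FPKM with knockdown, against 11.4 and 13.4 FPKM in controls. Mdm2, the ubiquitin ligase that limits p53, had 173 and 153 FPKM with knockdown, against 44.9 and 45.7 FPKM in controls. Replicates of each of these 3 differed little beside the distance between the groups. The list includes Trp53 itself, named after its values were seen, with 432 and 443 FPKM with knockdown, against 376 and 393 FPKM in controls. Its change was the smallest of the 16, 0.19 as deposited and -0.13 after rescaling.

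Of 41 p53 targets with other roles 29 are listed, 27 higher, 1 lower and 1 not called, with a median of 1.28 (rescaled 1.00). Perp, a desmosome protein linked to apoptosis, had 87.5 and 76.4 FPKM with knockdown, against 13.9 and 14.6 FPKM in controls. Dcxr, a sugar reductase, had 51.3 and 41.1 FPKM with knockdown, against 7.29 and 11.2 FPKM in controls. Tap1, the peptide transporter of antigen presentation, had 10.5 and 7.88 FPKM with knockdown, against 1.31 and 1.49 FPKM in controls; its locus overlaps Psmb9. Knockdown replicate 1 was the higher one in all 3. The exception on the lower side was Tigar, a phosphatase that restrains glycolysis, with 11.3 and 12.4 FPKM with knockdown, against 15.1 and 15.7 FPKM in controls. Bax, the pore-forming apoptosis gene, was the member not called, at 135 and 133 FPKM with knockdown and 127 and 126 FPKM in controls. Bax, too, was named after its values were seen; its change was 0.082 as deposited and -0.23 after rescaling. In the BCL2 family, 5 of 18 are listed, and Bcl2l1, which protects cells, was higher (56.6 and 46.7 FPKM with knockdown, 22.6 and 24.8 in controls), while the pro-apoptotic Bmf was lower (1.31 and 1.56 FPKM with knockdown, 2.90 and 3.36 in controls).

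Genes of the cell surface, its adhesions and the signals read from them formed a second large higher group. YAP, held back by the Hippo kinases, works through TEAD factors and turns on genes in spread or stretched cells. Of 42 YAP-TEAD targets and pathway genes 22 are listed, 21 higher and 1 lower, with a median of 1.21 (rescaled 1.00). After Cyr61 came Ptpn14, a phosphatase that binds YAP (62.2 and 55.02 FPKM with knockdown, 11.5 and 11.7 in controls), and Thbs1, the matrix protein thrombospondin (6.57 and 9.22 FPKM with knockdown, 1.10 and 0.896 in controls). The lower one was Tead2 itself, the TEAD gene known to be strong in ESCs, with 28.98 and 25.1 FPKM with knockdown, against 41.9 and 41.4 FPKM in controls.

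The promoters of the 2 leading genes are shown for the TEAD core GGAATG, which reads CATTCC on the other strand and is in capitals, in the 200 bases before the RefSeq start at chr3:145649986-145650185 (-) for Cyr61, named Ccn1 by RefSeq, and chr1:189728068-189728267 (+) for Ptpn14.
Cyr61: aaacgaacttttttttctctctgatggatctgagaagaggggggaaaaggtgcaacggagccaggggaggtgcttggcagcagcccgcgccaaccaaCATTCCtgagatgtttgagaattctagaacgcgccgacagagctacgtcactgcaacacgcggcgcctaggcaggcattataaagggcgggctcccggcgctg
Ptpn14: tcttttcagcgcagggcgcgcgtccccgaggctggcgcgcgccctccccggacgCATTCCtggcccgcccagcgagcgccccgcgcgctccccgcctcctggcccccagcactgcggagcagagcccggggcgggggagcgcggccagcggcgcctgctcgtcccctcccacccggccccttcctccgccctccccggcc

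Each holds 1 run, 103 bases from the start in Cyr61 and 146 in Ptpn14, and 14.4% of all genes hold GGAATG in the 250 bases before their start. For the YAP-TEAD list, where 16 of the 21 higher genes have a window (76.2%, below that 80%), 8 of the 16 hold it, and nothing is read from this share.

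AP-1 and immediate early genes, which respond within minutes to growth factors and stress, had 18 of 36 listed, 16 higher and 2 lower, with a median of 0.91 (rescaled 0.64). Jun, the partner of Fosl1, had 21.5 and 20.3 FPKM with knockdown, against 2.98 and 3.23 FPKM in controls. Phlda1, an early response gene, had 65.9 and 58.5 FPKM with knockdown, against 10.7 and 12.5 FPKM in controls. The 2 lower ones were Myc and Ier3 (3.16 and 3.34 FPKM with knockdown, 6.996 and 6.34 in controls). The cytoskeleton list had 39 of 63 listed, 29 higher, 9 lower and 1 not called, with a median of 0.47 (rescaled 0.17). Actin-side genes led the rise, with Zyx, a zyxin of focal adhesions, at 40.1 and 37.1 FPKM with knockdown, against 5.83 and 6.75 FPKM in controls. Tpm1, a tropomyosin, had 145 and 135 FPKM with knockdown, against 41.6 and 43.4 FPKM in controls. Plec, the linker protein plectin, had 49.7 and 58.8 FPKM with knockdown, against 16.5 and 16.8 FPKM in controls. The 3 lowest members were all beta-tubulins. Tubb2b had 41.004 and 45.01 FPKM with knockdown, against 86.1 and 90.3 FPKM in controls. Tubb2a had 15.8 and 16.6 FPKM with knockdown, against 28.5 and 30.5 FPKM in controls. Tubb5 had 419 and 438 FPKM with knockdown, against 721 and 754 FPKM in controls. Tubb2a and Tubb2b are near copies, and reads could be shared between them, while Tubb6, named after its values were seen, was higher (78.7 and 64.98 FPKM with knockdown, 31.8 and 31.9 in controls).

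Extracellular matrix and protease genes had 21 of 47 listed, 19 higher and 2 lower, with a median of 0.94 (rescaled 0.77). Serpine2, a protease inhibitor, had 96.6 and 67.4 FPKM with knockdown, against 16.3 and 17.7 FPKM in controls, with knockdown replicate 1 well above replicate 2. The 2 lower genes were Spp1, the secreted osteopontin (82.2 and 77.8 FPKM with knockdown, 126 and 133 in controls), and Nid1, a basement membrane linker (11.99 and 11.5 FPKM with knockdown, 18.6 and 19.2 in controls). Of the S100, annexin and galectin genes 8 of 26 are listed, 6 higher and 2 lower, with a median of 0.82 (rescaled 0.53). S100a6, a calcium-binding protein, had 99.2 and 103 FPKM with knockdown, against 23.7 and 20.2 FPKM in controls. Anxa3, an annexin, had 16.02 and 14.4 FPKM with knockdown, against 2.35 and 2.38 FPKM in controls.

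**Figure D2:**
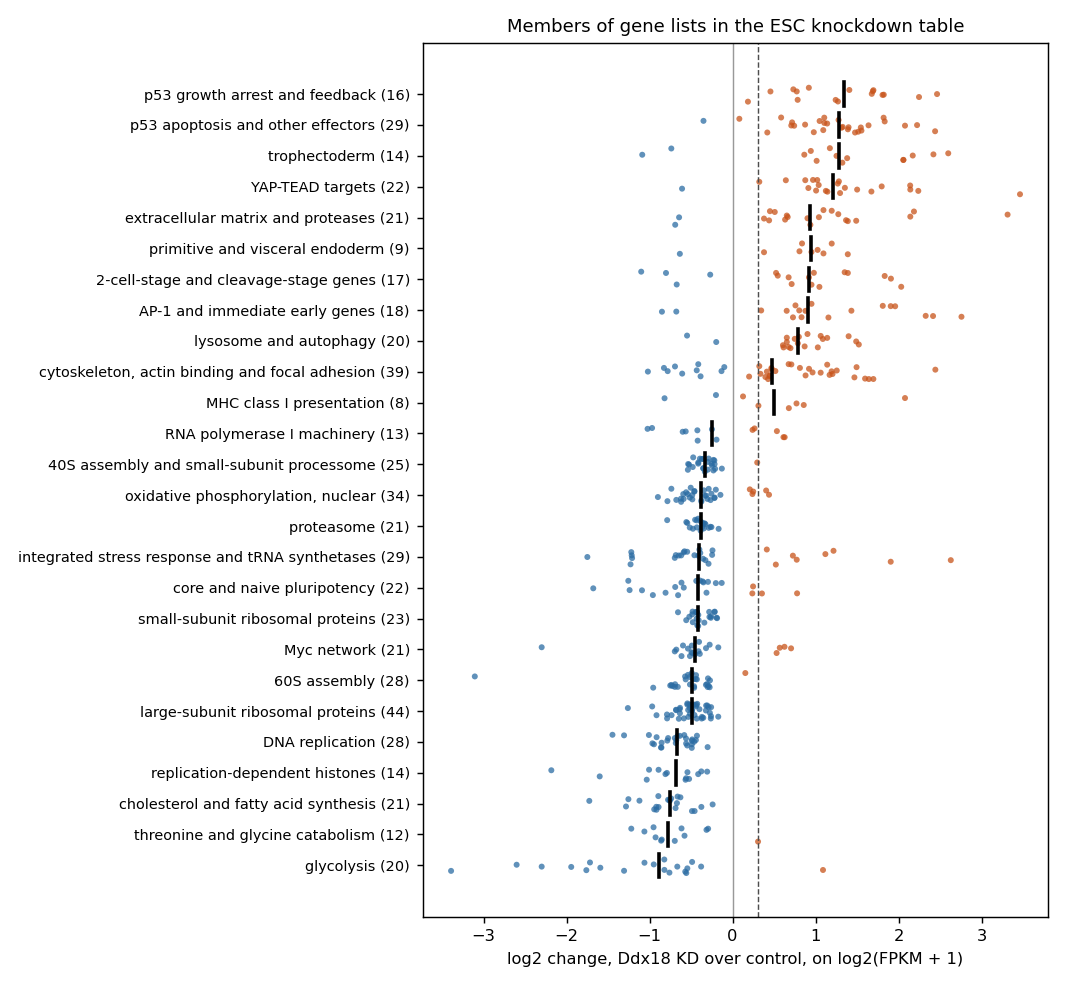
Log2 change on log2(FPKM + 1) of every listed member of 26 gene lists (points; the number listed is in brackets; orange above 0, blue below 0; vertical scatter is for legibility), knockdown over control, with the list's median as a black bar. The solid line marks 0 and the dashed line the median of all listed genes at 0.30; medians run from 1.34 for p53 growth arrest to -0.89 for glycolysis.

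The pluripotency network was lower in most of its listed members, to differing degrees. Of 44 core and naive genes 22 are listed, 17 lower, 4 higher and 1 not called, with a median of -0.41 (rescaled -0.73). Eras, a Ras gene of ESCs, had 6.44 and 5.99 FPKM with knockdown, against 21.8 and 22.4 FPKM in controls. Tcl1, a co-activator of AKT, had 15.4 and 21.5 FPKM with knockdown, against 45.4 and 44.4 FPKM in controls. Tdgf1, the Nodal co-receptor Cripto, had 144 and 139 FPKM with knockdown, against 334 and 336 FPKM in controls. With changes of -1.68, -1.26 and -1.24, these 3 had lower values relative to controls than Pou5f1, at -0.39. Klf5 went the other way, with 229 and 221 FPKM with knockdown, against 132 and 129.7 FPKM in controls. Klf5 is a factor of naive ESCs that also acts in trophectoderm. Zfp281 was higher as deposited (0.25) and at -0.045 after rescaling.

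Genes of the primed epiblast were lower too. Of 21, 5 are listed and all 5 were lower, with a median of -1.22 (rescaled -1.50). Foxd3, a forkhead factor, had 7.37 and 7.69 FPKM with knockdown, against 19.8 and 17.9 FPKM in controls. Lefty2, a target and feedback inhibitor of Nodal, had 13.6 and 9.75 FPKM with knockdown, against 50.4 and 48.5 FPKM in controls. Lefty1, of the same kind, had 25.7 and 16.5 FPKM with knockdown, against 56.1 and 57.2 FPKM in controls. Lefty1 was one of the 3 genes of at least 10 FPKM whose knockdown libraries differed most from each other. In the Nodal pathway as a whole 10 of 22 are listed, 6 higher and 4 lower, with a median of 0.45 (rescaled 0.15). The 4 lower were Lefty1, Lefty2, Tdgf1 and Inhbb, a subunit of activin B (0.849 and 0.689 FPKM with knockdown, 6.20 and 5.77 in controls), and the higher ones include Fst, an activin inhibitor (1.82 and 1.64 FPKM with knockdown, 0.384 and 0.439 in controls), and the signal transducer Smad2 (31.4 and 34.6 FPKM with knockdown, 21.9 and 22.6 in controls).

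FGF ligands and their feedback genes parted. Of 26, 13 are listed, 8 higher and 5 lower, with a median of 0.49 (rescaled 0.18). The ligands were lower, with Fgf15 at 1.49 and 1.20 FPKM with knockdown, against 13.2 and 11.05 FPKM in controls. Fgf17 had 2.14 and 2.43 FPKM with knockdown, against 12.5 and 11.4 FPKM in controls. Fgf4, through which ESCs drive their own ERK signal, had 15.3 and 15.9 FPKM with knockdown, against 34.8 and 33.9 FPKM in controls. No listed ligand of the list was higher. Among the higher genes were the ERK phosphatases Dusp5 (15.8 and 17.2 FPKM with knockdown, 4.82 and 4.54 in controls) and Dusp4 (14.1 and 12.8 FPKM with knockdown, 5.29 and 7.06 in controls) and the receptor Fgfr4 (3.30 and 3.34 FPKM with knockdown, 0.922 and 1.15 in controls). In the BMP list 5 of 22 are listed, 4 higher and 1 lower, with a median of 0.73 (rescaled 0.45). Its target genes Id2 (15.1 and 12.6 FPKM with knockdown, 3.94 and 4.82 in controls) and Id3 (38.6 and 32.5 FPKM with knockdown, 17.4 and 17.96 in controls), inhibitors of differentiation factors, were higher. The ligand Bmp4 was the lower one (7.94 and 8.91 FPKM with knockdown, 14.4 and 17.2 in controls).

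Trophectoderm genes, which mark the outer layer of the blastocyst, were higher in most listed members and mostly at low levels. Of 32, 14 are listed, 12 higher and 2 lower, with a median of 1.29 (rescaled 1.10). Hand1, a factor of trophoblast, had 13.1 and 12.2 FPKM with knockdown, against 2.17 and 1.91 FPKM in controls. Ly6a, a surface protein gene, had 13.6 and 13.96 FPKM with knockdown, against 2.19 and 1.39 FPKM in controls. Beside the keratin Krt18, at 51.6 FPKM or more with knockdown, these are small amounts. The 2 lower genes were Rhox5, an X-linked homeobox gene (22.2 and 20.5 FPKM with knockdown, 45.9 and 47.1 in controls), and Lgals3, a galectin (20.2 and 26.3 FPKM with knockdown, 38.97 and 39.2 in controls). Primitive and visceral endoderm had 9 of 31 listed, 8 higher and 1 not tested, with a median of 0.95 (rescaled 0.80). The member not tested was lower with knockdown, at -0.63. Sparc, a matrix protein strong in that lineage, had 189 and 195 FPKM with knockdown, against 82.2 and 84.3 FPKM in controls. The type IV collagens Col4a1 and Col4a2, whose loci overlap, were higher as well (31.03 and 27.95 FPKM with knockdown, 13.3 and 13.2 in controls, for Col4a1; 13.7 and 11.8 FPKM with knockdown, 4.38 and 4.09 in controls, for Col4a2). All 3 of these are also matrix genes of other cell types.

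Mesoderm had 5 of 31 listed, 4 higher and 1 not tested, with Wnt3, a ligand of the primitive streak, at 3.19 and 2.15 FPKM with knockdown, against 0.381 and 0.327 FPKM in controls. Its higher members include Tpm1, also in the cytoskeleton list, and Acta2, also among the fibroblast markers. Tpm1 made up most of the list's sum, which was 158.6 and 148.6 FPKM with knockdown and 47.2 and 48.9 FPKM in controls. Neuroectoderm had 7 of 30 listed, 3 higher, 3 lower and 1 not tested, with a median of 0.58 over all 7. Over the members that passed the filter after rescaling, the rescaled median was 0.06. Sox21, a neural factor, had 3.15 and 2.40 FPKM with knockdown, against 0.496 and 0.690 FPKM in controls. Stmn2, a microtubule regulator of neurons, had 88.9 and 92.2 FPKM with knockdown, against 163 and 175 FPKM in controls. The list thus had no common direction. Its median turned to -0.51 without knockdown replicate 1 and to -0.59 without knockdown replicate 2. In each of these fits only 4 members were left above the filter, against 6 with all libraries. Of 51 genes of the 2-cell and cleavage stages 17 are listed, 13 higher, 3 lower and 1 not tested, with a median of 0.92 (rescaled 0.66). Usp17la, a deubiquitinase gene of that stage, had 22.3 and 21.8 FPKM with knockdown, against 5.02 and 4.28 FPKM in controls. Its neighbour Usp17lb had 28.97 and 22.5 FPKM with knockdown, against 5.66 and 6.51 FPKM in controls. The Usp17l genes are near-identical copies, so their reads may be split between them. Cphx1, a homeobox gene of cleavage embryos, was lower (0.786 and 0.582 FPKM with knockdown, 2.35 and 2.87 in controls).

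Cell cycle genes were lower in the main. All 28 listed of 48 DNA replication genes were lower, with a median of -0.67 (rescaled -0.94). Tk1, thymidine kinase, had 14.9 and 17.3 FPKM with knockdown, against 44.9 and 46.1 FPKM in controls. Cdc6, which loads the replicative helicase, had 15.5 and 13.9 FPKM with knockdown, against 37.7 and 37.9 FPKM in controls. Uhrf1, which maintains DNA methylation behind the fork, had 53.3 and 49.7 FPKM with knockdown, against 103 and 106 FPKM in controls. Each was more than 2-fold lower on the means. All 14 listed of 67 replication-dependent histone genes were lower, with a median of -0.68 (rescaled -0.97) and Hist2h2bb at 2.31 and 2.24 FPKM with knockdown, against 13.4 and 14.4 FPKM in controls. Most of these mRNAs carry no poly(A) tail, so bead selection catches only part of them, and near-identical copies can share reads.

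In the G1 list 14 of 25 are listed, 5 higher and 9 lower, with a median of -0.52 (rescaled -0.78). Cdkn1a, the p21 inhibitor, had 87.1 and 85.9 FPKM with knockdown, against 25.3 and 26.6 FPKM in controls. Cdkn2b, the p15 inhibitor, had 5.23 and 6.75 FPKM with knockdown, against 1.71 and 2.06 FPKM in controls. Rb1, which binds E2F, had 6.23 and 6.49 FPKM with knockdown, against 1.66 and 1.85 FPKM in controls. All 3 restrain entry into S phase and were above their controls; the 3 listed cyclins were below theirs. Ccne1, cyclin E1, had 44.4 and 42.8 FPKM with knockdown, against 117 and 121 FPKM in controls. Ccnd1, cyclin D1, had 25.4 and 16.3 FPKM with knockdown, against 40.6 and 40.8 FPKM in controls, with the knockdown libraries unlike each other. Of G2 and mitosis genes 15 of 36 are listed, 12 lower and 3 higher, with a median of -0.37 (rescaled -0.67). Cdk1, the mitotic kinase, had 45.002 and 43.4 FPKM with knockdown, against 75.3 and 75.5 FPKM in controls. The higher ones were Hmmr, Cdc20 and Anln, with changes of 0.44, 0.34 and 0.16, that of Anln being -0.15 after rescaling.

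Myc and most of its listed network were lower. Myc had 42.2 and 51.5 FPKM with knockdown, against 73.7 and 76.7 FPKM in controls. Of 32 network genes 21 are listed, 17 lower and 4 higher, with a median of -0.45 (rescaled -0.74). The higher ones include Mxd4, which competes with Myc for its partner Max (4.97 and 4.03 FPKM with knockdown, 2.26 and 2.47 in controls), its relative Mxd1 (1.75 and 1.80 FPKM with knockdown, 0.800 and 0.940 in controls), and Cad, the first enzyme of pyrimidine synthesis (57.7 and 57.7 FPKM with knockdown, 37.6 and 36.5 in controls).

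Ribosome genes moved down together, by small steps. All 44 listed of 50 large-subunit protein genes were lower, with changes between -1.26 and -0.17 and a median of -0.49 (rescaled -0.81). Their summed level was 25338 and 25317 FPKM with knockdown and 34354 and 35135 FPKM in controls. All 23 listed of 33 small-subunit protein genes were lower as well, with a median of -0.41 (rescaled -0.73). Rpl22l1, a paralog of Rpl22, had 5.28 and 7.22 FPKM with knockdown, against 18.2 and 14.5 FPKM in controls. Rpl39 had 83.1 and 80.7 FPKM with knockdown, against 175 and 148 FPKM in controls. Rps9 had 449 and 483 FPKM with knockdown, against 758 and 712 FPKM in controls. Ribosomal protein genes have many processed copies in the genome, so their values are uncertain where reads were split.

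Assembly factors followed. For the 60S subunit 28 of 64 are listed, 27 lower and 1 higher, with a median of -0.48 (rescaled -0.80), Ddx18 being one of the 27. Nolc1, a chaperone of snoRNPs, had 84.01 and 89.7 FPKM with knockdown, against 165 and 174 FPKM in controls. Exosc2, a subunit of the exosome that trims rRNA ends, had 19.5 and 18.1 FPKM with knockdown, against 34.5 and 30.2 FPKM in controls. After Ddx18, these were the 2 lowest of the list. For the 40S subunit and its processome 25 of 55 are listed, 23 lower, 1 higher and 1 not called, with a median of -0.33 (rescaled -0.64). The lowest of these, Pno1, Emg1 and Wdr3, changed by -0.54, -0.53 and -0.52. The higher members of the 2 lists, Mak16 and Utp20, changed by 0.15 and 0.30, and by -0.16 and -0.012 after rescaling. All 9 listed snoRNP proteins of 20 were lower, with a median of -0.65 (rescaled -0.96), led after Nolc1 by Nop10, a core protein of H/ACA particles (60.6 and 64.3 FPKM with knockdown, 109.5 and 111 in controls).

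The RNA polymerase I machinery was mixed. Of 28 genes 13 are listed, 8 lower and 5 higher, with a median of -0.25 (rescaled -0.56). The lower ones were led by subunits shared with other polymerases, Polr2k (19.1 and 20.8 FPKM with knockdown, 41.4 and 41.7 in controls) and Polr1c (41.1 and 40.4 FPKM with knockdown, 84.4 and 77.4 in controls). On the higher side stood Sirt7, a deacetylase that activates the polymerase (9.85 and 10.2 FPKM with knockdown, 5.81 and 6.46 in controls), and Ttf1, its termination factor (11.2 and 12.5 FPKM with knockdown, 7.49 and 7.29 in controls). Of 25 snoRNA host genes 5 are listed, 4 lower and 1 higher, the last being Snhg1 (84.2 and 89.5 FPKM with knockdown, 61.4 and 63.4 in controls). Snord15b, a snoRNA within Rps3, is listed at 0 in both knockdown libraries and at 56.8 and 88.96 FPKM in the controls; snoRNAs carry no poly(A) tail, are shorter than most fragments and here share a locus with their host, so no fold is given.

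Entries on ribosomal DNA repeats held the largest loss of FPKM in the table. Yam1 (chr17:39847113-39848035) had 9269 and 10542 FPKM with knockdown, against 22219.6 and 19110.5 FPKM in controls. Gm42418, which overlaps it at chr17:39846958-39848788, had 1727 and 2045 FPKM with knockdown, against 3457 and 3111 FPKM in controls. Their log2 changes were -1.06 ± 0.095 and -0.80 ± 0.091 (SE; limma adjusted p = 6.0e-05 and 1.6e-04), with controls and knockdown libraries apart. The libraries were made from poly(A)-selected RNA, in which the amount of rRNA left also depends on the selection, and its part in the result was not tested. Both entries lie inside 1 region bound by DDX18, chr17:39842901-39848800 on the plus strand, annotated to the single exon of a non-coding RNA and present in both CLIP and both TAP libraries. It ranked 18 and 20 of 880 and 939 regions in CLIP, and 21 and 20 of 635 and 741 regions in TAP, by the authors' region score.

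Few other listed genes carried such regions, and those that did were mostly abundant. A region in an exon in both CLIP libraries was found for 64 tested genes, 22 called higher and 41 lower (64.1% lower), with a median of 204 FPKM in controls. Of the 4630 genes with no exonic region in both libraries of either assay, 1961 were lower (42.4%), at a median of 9.63 FPKM. Among genes with a mean of at least 100 FPKM, 35 of 39 with a region were lower (89.7%), against 302 of 376 without one (80.3%), so lower genes were the majority in both sets at that level. The median log2 change was -0.43 with a region and -0.43 without one, at median control levels of 530 and 205 FPKM. Lars2, named after its values were seen, a mitochondrial leucyl-tRNA synthetase with a region in its 3′ UTR (chr9:123461801-123462200) in all 4 binding libraries, had 1037 and 1238 FPKM with knockdown, against 1849 and 1676 FPKM in controls. As in Yam1 and Gm42418, the second knockdown library was above the first and the second control below the first. Whether reads of rRNA enter the value or the region of Lars2 was not tested.

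Direction was tied to expression level throughout the table. Tested genes were ranked by mean FPKM and split into 5 equal bins. In the lowest bin (0.531 to 2.96 FPKM) 620 were called higher and 300 lower, and in the highest (44.8 to 15285 FPKM) 292 higher and 635 lower. Genes called higher had a median of 10.4 FPKM with knockdown and 5.80 in controls, and genes called lower had a median of 16.003 FPKM with knockdown and 23.98 in controls. Direction was also tied to the span of the locus, with 44.0% higher and 54.5% lower in the bin with the shortest spans (up to 5.436 kb), and 71.9% higher and 25.3% lower in the bin with the longest (over 60.569 kb). Many of the lists that were lower, such as ribosomal proteins and histones, are short and abundant genes, and what part level or length has in their direction was not tested.

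**Figure D3:**
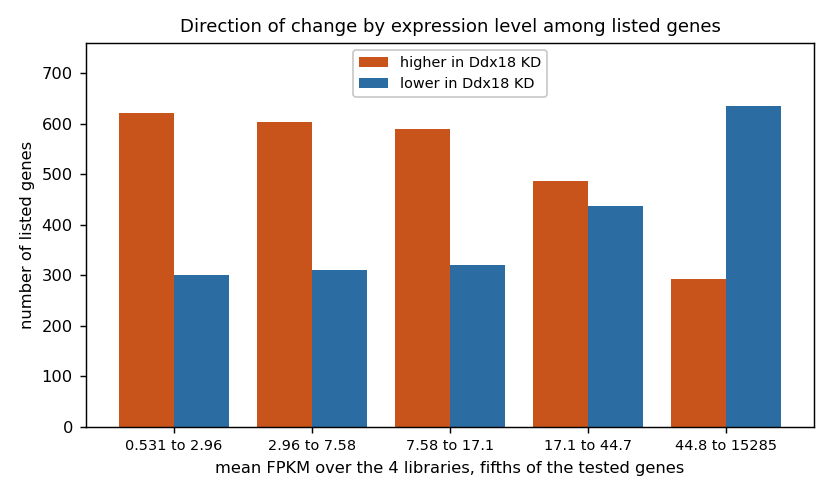
Number of tested genes called higher (orange) and lower (blue) in Ddx18 knockdown ESCs, in 5 equal bins of mean FPKM over the 4 libraries, from low to high. Higher genes outnumber lower ones in the 4 lower bins, and in the top bin 635 are lower and 292 higher.

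Some transcripts moved by a large amount of RNA. Polr2a, the largest subunit of RNA polymerase II, had 608 and 615 FPKM with knockdown, against 306 and 326 FPKM in controls. Cd81, a surface tetraspanin, had 394 and 367 FPKM with knockdown, against 144 and 157 FPKM in controls. Their means were 1.93-fold and 2.53-fold those of the controls. Pabpc1, which binds poly(A) tails, had 1948 and 1869.5 FPKM with knockdown, against 1673 and 1717 FPKM in controls, a log2 change of 0.17 as deposited and -0.14 after rescaling. The predicted gene Gm38356 (2048 and 2468 FPKM with knockdown, 1279.5 and 1295 in controls) and S100a11 (477 and 463 FPKM with knockdown, 268 and 277 in controls) also gained. After the rDNA entries, the largest losses were in mt-Nd1, a subunit of respiratory complex I encoded in mitochondria (1909 and 1759 FPKM with knockdown, 3601 and 3196 in controls), Pkm, the clone-named entry AL589651.2, and the alpha-tubulin Tuba1b (1082 and 1109.9 FPKM with knockdown, 1732 and 1814 in controls). Among genes with a mean of at least 10 FPKM, the knockdown libraries were least alike in Rcn3, a calcium-binding protein of the endoplasmic reticulum (5.08 and 9.31 FPKM with knockdown, 20.8 and 19.4 in controls).

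Metabolic genes outside glycolysis were lower as well. All 21 listed of 32 cholesterol and fatty acid synthesis genes were lower, with a median of -0.76 (rescaled -1.06). Scd1, stearoyl-CoA desaturase, had 5.67 and 5.14 FPKM with knockdown, against 19.1 and 21.3 FPKM in controls. Fdps, a synthase of isoprenoids, had 27.3 and 28.4 FPKM with knockdown, against 72.4 and 65.96 FPKM in controls. Ebp, a sterol isomerase, had 8.93 and 8.05 FPKM with knockdown, against 21.8 and 21.5 FPKM in controls. Each was more than 2-fold lower on the means. Of 76 nuclear genes of oxidative phosphorylation 34 are listed, 29 lower and 5 higher, with a median of -0.38 (rescaled -0.69). Uqcrq, a subunit of complex III, had 74.2 and 70.7 FPKM with knockdown, against 142 and 129.995 FPKM in controls. The higher ones include Ndufa11 and Ndufb6 of complex I, with changes of 0.44 and 0.40. Ndufb9 changed by 0.25 as deposited and -0.064 after rescaling.

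Threonine and glycine catabolism, which feeds one-carbon units to fast-growing mouse ESCs, had 12 of 15 listed, 11 lower and 1 higher, with a median of -0.77 (rescaled -1.08). Mthfd2, a mitochondrial folate enzyme, had 6.30 and 5.64 FPKM with knockdown, against 14.1 and 16.5 FPKM in controls. Gcsh, of the glycine cleavage system, had 46.4 and 35.6 FPKM with knockdown, against 89.3 and 82.8 FPKM in controls. Gcat, which makes glycine from a threonine product, had 10.2 and 11.2 FPKM with knockdown, against 21.7 and 21.5 FPKM in controls. The groups of all 3 were apart. The higher one was Mthfd1, at 0.31 as deposited and -0.0048 after rescaling.

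The integrated stress response, which acts through the factor ATF4, had members on both sides. Of 58 genes and tRNA synthetases 29 are listed, 8 higher and 21 lower, with a median of -0.40 (rescaled -0.71). Beside Ddit3, whose values stand above, the transcription factor genes Atf3 (7.93 and 6.36 FPKM with knockdown, 1.46 and 0.907 in controls) and Cebpb (8.46 and 7.01 FPKM with knockdown, 2.30 and 3.25 in controls) were higher. The lower ones were led by enzymes. Chac1, which degrades glutathione, had 1.51 and 1.93 FPKM with knockdown, against 7.41 and 8.86 FPKM in controls. Phgdh, the first enzyme of serine synthesis, had 17.9 and 18.6 FPKM with knockdown, against 44.3 and 43.8 FPKM in controls. All 21 listed of 35 proteasome genes were lower, with a median of -0.38 (rescaled -0.69), and Psmd7, a subunit of its cap, had 124 and 125 FPKM with knockdown, against 212 and 219.5 FPKM in controls. Lysosome and autophagy genes were on the opposite side, with 20 of 38 listed, 18 higher and 2 lower, and a median of 0.79 (rescaled 0.48). Gaa, the lysosomal glucosidase, had 46.4 and 54.5 FPKM with knockdown, against 15.98 and 17.8 FPKM in controls. Ctsd, cathepsin D, had 237 and 255 FPKM with knockdown, against 84.2 and 89.7 FPKM in controls. Grn, progranulin, had 79.96 and 86.002 FPKM with knockdown, against 29.5 and 32.2 FPKM in controls. Replicates of all 3 lay close together. Gabarapl2, an autophagy adaptor, was among the lower ones (45.2 and 46.6 FPKM with knockdown, 67.4 and 67.6 in controls).

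The listed genes could be followed in libraries that had no part in choosing them. The 3 other tables hold all genes and share no library with the ESC knockdown, but each was normalized by itself, so only changes within a table are compared. In EZH2 KO ESCs, limma called 6.3% of 11774 genes higher and 2.18% lower with knockdown. Of 2269 tested genes that were higher in ESCs, 521 were called higher there and 1 lower, and of 1785 that were lower in ESCs, 161 were called lower and 3 higher. Called or not, 84.3% of 4166 listed genes had the same sign in both (83.0% rescaled), which was 89.6% of the higher and 78.8% of the lower genes (80.4% and 87.4% rescaled). In p53 KO ESCs, where 2.63% of 11636 genes were called higher and 0.636% lower, the same counts were 148 higher and 3 lower of 2160, and 44 lower and 6 higher of 1769. There 71.6% of 4044 genes had the same sign (72.2% rescaled), but by direction this was 85.8% of the genes higher in ESCs and 54.8% of those lower, and after rescaling 65.2% and 82.2%. The median over all genes tested in p53 KO ESCs was itself 0.34. With CX-5461, where 32.9% of 12967 genes were called higher and 28.9% lower, 1660 of 2192 were called higher and 100 lower, and 1238 of 1755 were called lower and 73 higher. The same sign was seen in 88.0% of 4049 genes (87.0% rescaled). Rescaling left 444 listed genes called higher and 345 lower in EZH2 KO ESCs, where 527 and 162 were called as deposited. In p53 KO ESCs it left 13 higher and 84 lower, where 158 and 47 were called as deposited. The calls in p53 KO ESCs also depended on the other settings: with a pseudocount of 0.1, limma called 0 of 4044 listed genes after adjustment, while 1397 had an unadjusted p under 0.05, against 1409 with a pseudocount of 1.

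Ddx18 itself changed by -2.32 in EZH2 KO ESCs (limma adjusted p = 0.0018) and -3.30 in p53 KO ESCs (limma adjusted p = 0.048), and by -0.81 with CX-5461, where it was not the target (limma adjusted p = 1.0e-04). The lists differed in how they carried over. The 16 listed growth-arrest targets of p53 had medians of 1.34 in ESCs, 0.77 in EZH2 KO ESCs (8 of 16 called higher), 0.25 in p53 KO ESCs (1 of 11 higher; -0.15 rescaled) and 2.25 with CX-5461 (13 of 16 higher, 1 lower). Trophectoderm genes had medians of 1.29 in ESCs, 0.83 in EZH2 KO ESCs (4 of 12 higher), 0.13 in p53 KO ESCs (2 of 13 higher; -0.23 rescaled) and 1.73 with CX-5461 (11 of 12 higher). The cytoskeleton list had medians of 0.47 in ESCs, 0.42 in EZH2 KO ESCs (18 of 39 higher, 2 lower), -0.13 in p53 KO ESCs (none higher, 1 lower of 39; -0.50 rescaled) and 0.71 with CX-5461 (21 of 37 higher, 8 lower). In p53 KO ESCs the sign of the median turned with scaling in the first 2 lists; whether a list as a whole differs between the tables was not tested.

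Other lists had medians on the same side of 0 in all 4 comparisons, though of differing size. Glycolysis had medians of -0.89 in ESCs, -0.54 in EZH2 KO ESCs (12 of 20 lower), -0.53 in p53 KO ESCs (3 of 20 lower) and -0.91 with CX-5461 (16 of 20 lower, 3 higher). Lysosome and autophagy genes had medians of 0.79 in ESCs, 0.42 in EZH2 KO ESCs (4 of 20 higher), 1.17 in p53 KO ESCs (6 of 20 higher, and all 20 above 0) and 0.70 with CX-5461 (15 of 20 higher, 1 lower). YAP-TEAD genes had medians of 1.21 in ESCs, 0.81 in EZH2 KO ESCs (9 of 21 higher, 1 lower), 0.43 in p53 KO ESCs (2 of 22 higher) and 1.32 with CX-5461 (18 of 19 higher, 1 lower). Each of these medians kept its sign after rescaling (in p53 KO ESCs -0.95, 0.76 and 0.12). The YAP-TEAD median of 0.43 in p53 KO ESCs lay near the 0.34 of all genes tested there. The pluripotency list fell furthest with CX-5461, with a median of -1.47 there (20 of 22 lower, 1 higher), against -0.41 in the ESC knockdown, -0.24 in EZH2 KO ESCs (4 of 22 lower) and 0.08 in p53 KO ESCs (1 of 22 lower; -0.30 rescaled).

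**Figure D4:**
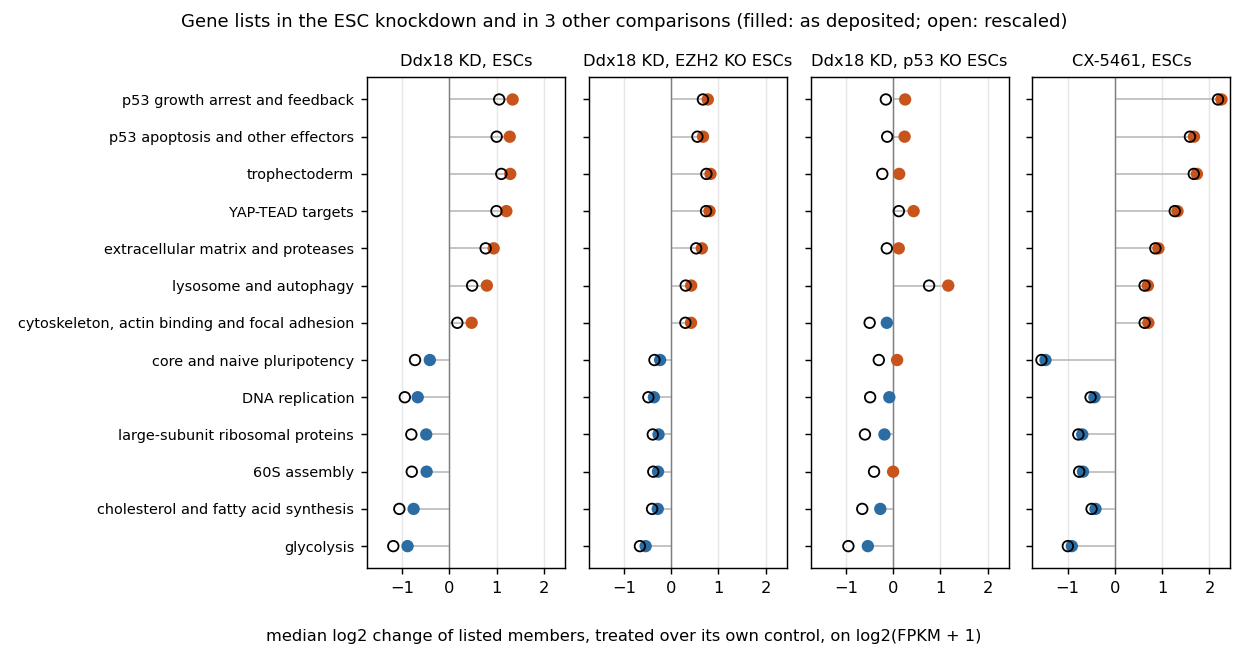
Median log2 change of the listed members of 13 gene lists in 4 comparisons, each treated group over its own control, as deposited (filled; orange above 0, blue below 0) and rescaled (open). As deposited, most medians in p53 KO ESCs lie close to 0, glycolysis lies at -0.53 and lysosome genes lie highest at 1.17. The median of all genes tested there is 0.34. Rescaled, all lie lower, with glycolysis at -0.95, cholesterol and fatty acid synthesis at -0.65, large-subunit ribosomal proteins at -0.60 and lysosome genes at 0.76.

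Gene by gene, the change in ESCs was tested against the change in each other table, on genes found in both. Because the ESC changes were selected for being large, these differences are biased away from 0 on the ESC side. Against EZH2 KO ESCs, 486 of 4722 genes differed upwards (10.3%) and 486 downwards (10.3%). Against p53 KO ESCs 558 (11.8%) and 611 (12.9%) of 4722 did, and against CX-5461 959 (20.3%) and 1095 (23.2%) of 4720. Some of these genes fell under the filter in the other table's own fit. Among genes tested in both tables, 378 differed upwards and 415 downwards of 4148 against EZH2 KO ESCs, 334 and 529 of 4025 against p53 KO ESCs, and 766 and 931 of 4035 against CX-5461. Over all genes and rescaled, the splits were 293 upwards and 1055 downwards against EZH2 KO ESCs, 559 and 530 against p53 KO ESCs, and 531 and 1870 against CX-5461. Rescaling took the ESC factors from the selected genes and those of the other tables from all their genes. The rescaled splits therefore set unlike scalings side by side, and nothing is read from their balance. Slc16a3 changed by -3.39 in ESCs, -1.66 in EZH2 KO ESCs, -1.86 in p53 KO ESCs and -1.14 with CX-5461, and Tpi1 by -2.60, -1.25, -1.16 and -0.86 in the same order. Cpz rose by 3.31 in ESCs, 3.20 in EZH2 KO ESCs and 2.97 with CX-5461, and changed by 0.07 in p53 KO ESCs; that table lists it at or near 0 in all 4 libraries, so it was not tested there. Ddit3 changed by 2.63 in ESCs, 1.23 in EZH2 KO ESCs and 2.10 in p53 KO ESCs, and by -0.28 with CX-5461 (limma adjusted p = 0.23).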

How the data were processed

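The authors deposited FPKM per gene for the 2 Ddx18 knockdown and 2 control ESC libraries, with the count of mapped reads and the fraction of reads mapped for each run. The deposited CLIP-seq and TAP-seq lists give a score per region, annotated on mm10 per the file headers, with its meaning not stated. TopHat2 2.0.11 and CASAVA, and the builds mm9 and mm10, are named per the submitters' processing notes; the program behind FPKM, any scaling between libraries and the rule that chose the listed genes are not given in the sources used here. Gene coordinates fit mm10: of 4392 genes matched to RefSeq by symbol, 1404 ends were equal and 1403 starts were equal after adding 1, and coordinates are given counting from 1.

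From these values, log2(FPKM + 1) was tested with limma 3.58.1 (R 4.3.3, empirical Bayes with a variance trend) on genes with at least 1 FPKM in 2 libraries (3 for CX-5461), with Benjamini-Hochberg adjustment at 0.05. The difference of 2 changes was a contrast over the 8 or 10 libraries of both tables, matched by gene identifier. All 4769 genes also pass an equal-variance comparison of raw FPKM at 0.05, which was found by testing and is not stated by the authors. The method was checked on simulated data with known changes.

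The members and gene lists were chosen with earlier results of these data known. Genes named are Ddx18, the 12 highest and 12 lowest changes with at least 5 FPKM in the higher group (no predicted or clone names), up to 3 per direction and list, the 6 largest gains and losses of FPKM, and the 3 genes of at least 10 FPKM whose knockdown libraries differed most. Others are said to be named after their values were seen. Alternatives were other pseudocounts (0.1, 5), no filter or 5 FPKM, rescaling, no variance trend, a replicate block, every entry kept, and leaving out each library. Entries with 7 date-like symbols were restored by gene identifier; some gene entries are not reported here. Promoter windows are RefSeq's on GRCm38.p6. Counting error cannot be given for FPKM, and other assays of the series are not analysed here.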

Additional observations from a re-analysis of the deposited data

Results flagged for a closer look

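For 12 genes with the largest changes, Ddx18 included, the knockdown's change in ESCs was set against that in each other table (limma contrast, adjusted over all genes in both tables). Snord15b in all 3 tables and Cpz in p53 KO ESCs are left out, because they fell under the filter in the other table and would enter only through the ESC libraries that chose them. Of the rest, 22 differences in 10 genes passed. The ESC changes were chosen for their size, so differences are biased towards a larger change in ESCs.

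Relative to EZH2 KO ESCs, the knockdown changed 4 genes more strongly downwards. The differences (ESC minus EZH2 KO, log2) were -1.73 for Slc16a3 (limma adjusted p = 0.0049), -1.35 for Tpi1 (limma adjusted p = 0.0028), -2.18 for Bnip3 (limma adjusted p = 0.011) and -1.13 for Ndufa4l2 (limma adjusted p = 0.027). Those of Slc16a3 and Tpi1 passed in all 16 alternatives, Bnip3 in 13 and Ndufa4l2 in 10. Bnip3 had 3.52 and 3.09 FPKM in EZH2 KO controls, against 16.2 and 17.8 FPKM in ESC controls. Ndufa4l2 had 6.55 and 5.44 FPKM in EZH2 KO controls, against 11.2 and 12.8 FPKM in ESC controls. Lower control levels leave less room for a decrease on log2(FPKM + 1), and their part in these 2 differences was not tested. Ddx18 itself differed by -0.79 (limma adjusted p = 0.013), which passed in 14 of 16, so the target was lowered further in ESCs. Of the genes that rose, Cyr61 differed by 0.68 (limma adjusted p = 0.019), Fosl1 by 1.19 (limma adjusted p = 0.019) and Irs2 by 1.07 (limma adjusted p = 0.023), with 11, 12 and 11 of 16 alternatives passing.

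Relative to p53 KO ESCs, where Ddx18 changed by -3.30 (difference 0.19, limma adjusted p = 0.60), 3 genes that rose in ESCs differed. The differences were 2.33 for Cyr61 (limma adjusted p = 0.0041), 1.84 for Fgfbp1 (limma adjusted p = 0.0028) and 1.76 for Fosl1 (limma adjusted p = 0.014). The first 2 passed in all 16 alternatives and Fosl1 in 10. Slc16a3 differed by -1.53 (limma adjusted p = 0.0067) and Tpi1 by -1.44 (limma adjusted p = 0.0085), passing in 16 and 13 of 16.

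Relative to CX-5461, which is not aimed at Ddx18, Ddx18 differed by -2.30 (limma adjusted p = 9.5e-07). Slc16a3 differed by -2.26 (limma adjusted p = 9.0e-07), Tpi1 by -1.74 (limma adjusted p = 1.9e-06), Bnip3 by -1.90 (limma adjusted p = 1.7e-05) and Ndufa4l2 by -2.84 (limma adjusted p = 6.3e-06), all 5 in all 18 alternatives. Ndufa4l2 had a log2 change of -2.48 in the ESC knockdown and 0.36 with CX-5461. Genes that rose less in the knockdown than with CX-5461 were Plin2 at -0.88 (limma adjusted p = 0.0057), Fosl1 at -0.87 (limma adjusted p = 0.0040), Fgfbp1 at -0.58 (limma adjusted p = 0.022) and Cyr61 at -0.36 (limma adjusted p = 0.028). Those of Plin2 and Fosl1 passed in 17 of 18 alternatives, and those of Fgfbp1 and Cyr61 in 13. The difference ranged from -1.33 to -0.094 over the alternatives for Plin2, and from -2.32 to -0.094 for Fosl1. That of Cyr61 reversed, to 0.53, under 1 of 18 alternatives. Mean FPKM in CX-5461 controls was 1.67 for Plin2, 0.21 for Fosl1, 2.13 for Fgfbp1 and 1.21 for Cyr61. In ESC controls it was 10.1, 1.88, 5.27 and 9.08. At such low levels these log2 differences depend on the pseudocount.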

How the results depend on the processing

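The number of genes called in the ESC knockdown, 4595, stayed within 1.5 times under every alternative run, and was 4172 to 4235 without 1 library. Ddx18 stayed between -3.21 and -3.01 without 1 library. Of 214 named genes 197 kept direction and call in every alternative in which they were tested. An alternative in which a gene fell under the filter was not counted for that gene. Rescaling reversed Zfp281 (-0.045), Anln (-0.15), Utp20 (-0.012), Mak16 (-0.16), Mthfd1 (-0.0048), Ndufb9 (-0.064), Eif4ebp2 (-0.0026) and Pabpc1 (-0.14), which moved by about the 0.29 by which it shifts the median of all genes. Of 47 list medians 6 reversed somewhere. Nodal reversed with a minimum of 5 FPKM (-0.42) and MHC class I when rescaled (-0.093). The rescaled MHC class I median covers the 6 members left above the filter, against 8 as deposited. Neuroectoderm reversed with that minimum (-0.56) and without knockdown replicate 1 or 2 (-0.59 to 0.37 without 1 library). Fibroblast markers reversed with that minimum (-0.27) and without 1 library (-0.33 to 0.71), and blood and endothelial markers without 1 library (-0.15 to 0.75). Germ cell markers reversed with a pseudocount of 5 (-0.0088), that minimum (-0.35), rescaled (-0.23) and without control replicate 1 (-0.0014 to 0.070 without 1 library). Without knockdown replicate 1 or 2, fewer members were left above the filter. These were 4 of 6 for neuroectoderm, 2 of 3 for fibroblast markers and 2 of 3 for blood and endothelial markers.

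Comparisons with other tables were less stable, and the cause was not tested. Alternatives on those tables' own calls, and leaving out their libraries, were chosen after seeing the data. The 972 genes that differed from EZH2 KO ESCs became 235 with the replicate block, and 97 to 1245 without 1 library (97 without control replicate 1, 125 without control replicate 2, 124 without knockdown replicate 1 and 311 without knockdown replicate 2 of the ESC table). The 1169 that differed from p53 KO ESCs became 778 with a pseudocount of 0.1, 414 with the block, and 109 to 1944 without 1 library (202 and 224 without ESC control 1 or 2, 109 and 156 without ESC knockdown 1 or 2, 1944 without p53 KO knockdown 2). For CX-5461, 2054 became 1481 to 2052 without 1 library. Of listed genes, 689 were called in EZH2 KO ESCs, 52 without a filter, 311 without the variance trend and 24 to 433 without 1 library (433 and 375 without control 1 or 2, 40 and 24 without knockdown 1 or 2). In p53 KO ESCs 205 were called, 437 with a minimum of 5 FPKM, 97 rescaled, and 0 by limma with a pseudocount of 0.1 or 5, no filter, no variance trend or the block, where 1397, 1409, 1374, 1350 and 1118 had an unadjusted p under 0.05. Without 1 library it was 0 to 465 (0 without control 1 or 2, with 756 and 839 unadjusted, and 465 and 408 without knockdown 1 or 2). With CX-5461 it was 2464 to 2959 of 3125.

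With the replicate number as a block the ESC count was 4550, 2568 higher and 1982 lower. The numbers share no labelled origin, and same-numbered libraries did not deviate together (correlation -0.014 over 4695 genes). Each group had 2 libraries, a lone library left in a group was assumed to vary like the others, and depth enters FPKM in a way that cannot be recovered here.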

Other observations

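Chromatin genes of the list for Polycomb repressive complex 2 had 6 of 15 listed, 2 higher and 4 lower, with a median of -0.28 (rescaled -0.60). Phf1, an accessory subunit, had 7.54 and 6.03 FPKM with knockdown, against 2.09 and 1.91 FPKM in controls. Ezh2, the methyltransferase, had 39.6 and 33.3 FPKM with knockdown, against 56.3 and 54.1 FPKM in controls. Of the DNA methylation genes 10 of 19 are listed, 3 higher and 7 lower, with a median of -0.25 (rescaled -0.56). Dnmt3b, a de novo methyltransferase, had 33.03 and 39.7 FPKM with knockdown, against 66.5 and 67.4 FPKM in controls, and the demethylase genes parted, Tet1 being lower (39.3 and 43.6 FPKM with knockdown, 61.1 and 61.6 in controls) and Tet3 higher (1.92 and 1.96 FPKM with knockdown, 1.19 and 1.11 in controls). All 3 listed of 52 Hox genes were higher. Hoxc13, a posterior gene, had 16.6 and 14.6 FPKM with knockdown, against 3.21 and 2.60 FPKM in controls.

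Genes of MHC class I presentation had 8 of 27 listed, 6 higher and 2 lower, with a median of 0.50. After rescaling only 6 members were left above the filter, with a median of -0.093, so the 2 medians cover different genes. B2m, the light chain of the class I molecule, had 18.7 and 22.1 FPKM with knockdown, against 11.03 and 10.5 FPKM in controls. Psmb10, an immunoproteasome subunit, was lower (3.28 and 3.81 FPKM with knockdown, 6.99 and 7.03 in controls). Of the translation initiation and elongation factors 26 of 49 are listed, 4 higher, 21 lower and 1 not called, with a median of -0.45 (rescaled -0.76). Eif4g3, a scaffold of initiation, had 28.1 and 35.3 FPKM with knockdown, against 11.98 and 12.9 FPKM in controls, whereas Eef1e1, a factor of the synthetase complex, had 16.5 and 14.1 FPKM with knockdown, against 32.2 and 26.6 FPKM in controls. All 3 listed genes of the mitochondrial genome were lower, with a median of -0.67 (rescaled -0.99).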
